A study of Mus musculus with 3 samples.

Results

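The genes described here encode the machinery by which a cell senses sterols and processes the SREBP transcription factors. They were 9 genes chosen by name, namely the SREBP factor genes Srebf1 and Srebf2, the escort gene Scap, the retention genes Insig1 and Insig2, the protease genes Mbtps1 and Mbtps2, the ubiquitin ligase gene Rnf145 and the sterol transfer gene Stard4. Of these, 8 had a probe set of their own among the 18820 genes measured. The probe set of Mbtps2 also carried the symbol of another gene, and no value is given for it. RAW264.7, an established mouse macrophage line, was exposed for 6 hours to 500 µM of oleate, elaidate or palmitate, each coupled to serum albumin in a ratio of 2 to 1, and total RNA was measured on whole-transcript arrays. Oleate is a cis monounsaturated fatty acid, elaidate is its trans isomer, and palmitate is a shorter saturated fatty acid. Each fatty acid gave 1 array, and no array of untreated cells was used here. The differences given here thus set 1 array against another, without replicates or p-values, and do not refer to cells without added fatty acid. The 3 comparisons share arrays and are not independent of each other.

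SREBP proteins are made as precursors in the membrane of the endoplasmic reticulum, bound to the escort protein SCAP. When membrane cholesterol is ample, SCAP is held back by the INSIG proteins. When cholesterol falls, SCAP carries SREBP in COPII vesicles to the Golgi, where the site-1 protease (Mbtps1) and then the site-2 protease (Mbtps2) release the part that enters the nucleus. SREBP2 mainly switches on genes of cholesterol synthesis and uptake, and SREBP1 those of fatty acid synthesis. Insig1, Stard4 and Srebf2 are themselves known SREBP targets. In macrophages this system works against the liver X receptors (LXR), which respond to oxysterols and switch on cholesterol export. Messenger RNA levels of the machinery do not report how much SREBP is cleaved.

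Promoter sequences are shown for the 3 members that represent the known modes of control, Srebf2 and Insig1 as SREBP targets and Rnf145 as an LXR target. Each is the run of 250 bases before the annotated start, read along the gene's strand, from the RefSeq annotation of GRCm38.p6. The windows lie at chr15:82147019-82147268 on the plus strand, chr5:28071162-28071411 on the plus strand and chr11:44518706-44518955 on the plus strand, the last being the first listed of 3 annotated starts. Capitals mark matches to the sterol regulatory element core TCACCCCA, its gapped form TCACNCCAC, the NF-Y box CCAAT and the E-box CACGTG, on either strand.
Srebf2: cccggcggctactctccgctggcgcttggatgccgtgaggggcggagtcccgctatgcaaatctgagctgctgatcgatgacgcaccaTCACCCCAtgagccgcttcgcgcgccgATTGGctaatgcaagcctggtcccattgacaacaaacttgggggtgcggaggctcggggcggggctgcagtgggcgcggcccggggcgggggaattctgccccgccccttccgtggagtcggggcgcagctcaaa
Insig1: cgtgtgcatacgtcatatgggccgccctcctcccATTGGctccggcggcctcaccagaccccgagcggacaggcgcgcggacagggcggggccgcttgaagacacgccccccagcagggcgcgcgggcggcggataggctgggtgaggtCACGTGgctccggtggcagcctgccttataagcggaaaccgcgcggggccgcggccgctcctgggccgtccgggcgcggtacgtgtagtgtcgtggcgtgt
Rnf145: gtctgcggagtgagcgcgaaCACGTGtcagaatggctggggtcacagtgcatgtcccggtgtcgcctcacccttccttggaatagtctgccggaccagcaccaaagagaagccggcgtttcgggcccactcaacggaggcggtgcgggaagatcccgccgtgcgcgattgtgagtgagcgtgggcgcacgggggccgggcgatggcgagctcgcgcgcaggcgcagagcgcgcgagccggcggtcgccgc
In the Srebf2 window the core TCACCCCA stood at -162 to -155 from the start, and an NF-Y box on the opposite strand, read here as ATTGG, at -135 to -131. In the Insig1 window an NF-Y box on the opposite strand stood at -216 to -212 and an E-box at -101 to -96. Neither form of the sterol regulatory element matched there. Of 17 genes of the SREBP2 target list described below, only Hmgcs1 held either form in such a window. The lack of a match thus does not set Insig1 apart from other known targets. The Rnf145 window held an E-box at -230 to -225 and no other capitalised match. No motif bound by LXR was among the letters searched, so this search cannot show whether the window holds one. Of all 32851 windows of this length, 1.34% held the core, 1.05% the gapped form, 33.8% an NF-Y box and 6.02% an E-box. The GC box GGGCGG, not capitalised, was found 4 times in the Srebf2 window and 3 times in that of Insig1, and 32.7% of all windows held it. These are matches of letters and not measured binding sites.

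Values are log2 expression values, and a gene counts as different at 1.5-fold, a log2 difference of 0.58. All 8 measured members passed the filter on low values, which kept 9410 genes at or above the median gene mean of 4.14. Median values over all probe sets were 3.57, 3.58 and 3.61 on the oleate, elaidate and palmitate arrays. The macrophage markers fitted the labelled cell type, since all 10 measured passed the filter, with Cd68 at 11.77 on every array. None of the 4 lymphocyte markers measured passed it, and 1 of 5 fibroblast, 1 of 4 adipocyte or hepatocyte and 1 of 4 epithelial markers did. The palmitate array stood away from the others, with a standard deviation of the differences over all genes past the filter of 0.38 against oleate and 0.33 against elaidate, beside 0.13 for elaidate against oleate.

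Of the 8 measured members, Srebf1, Scap and Mbtps1 had the flattest deposited profiles. Srebf2 came next with a span of 0.33. Srebf1, whose protein drives fatty acid synthesis genes, had a value of 7.11 on all 3 arrays. Mbtps1, the site-1 protease that makes the first cut of SREBP, had 7.85 on all 3. Scap, the sterol-sensing escort, was measured by 2 probe sets, at 7.70 and at 3.31, and each of them was equal on all 3 arrays. These equalities hold to within 1e-06, so the deposited values show no difference at all for these 3 genes. Such equality was common, at 27.5% of all genes past the filter. With the genes split by mean level into 4 groups of like size, it ran from 45.7% in the lowest group to 14.2% in the highest. An equal deposited value therefore does not show that the messenger RNA was the same, and how the summary of probes contributes to it was not tested. The single Srebf1 probe set also does not separate the transcripts that start at its 3 annotated starts.

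Srebf2, the main activator of cholesterol synthesis genes, had values of 9.99 with oleate, 10.05 with elaidate and 9.73 with palmitate. Its level was lowest with palmitate, by 0.27 against oleate and 0.33 against elaidate. The difference between elaidate and oleate was 0.06. Differences at least as far from 0 as these were found for 25.6%, 19.0% and 32.5% of all genes in the same comparisons, so none of them sets Srebf2 apart.

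**Figure D1:**
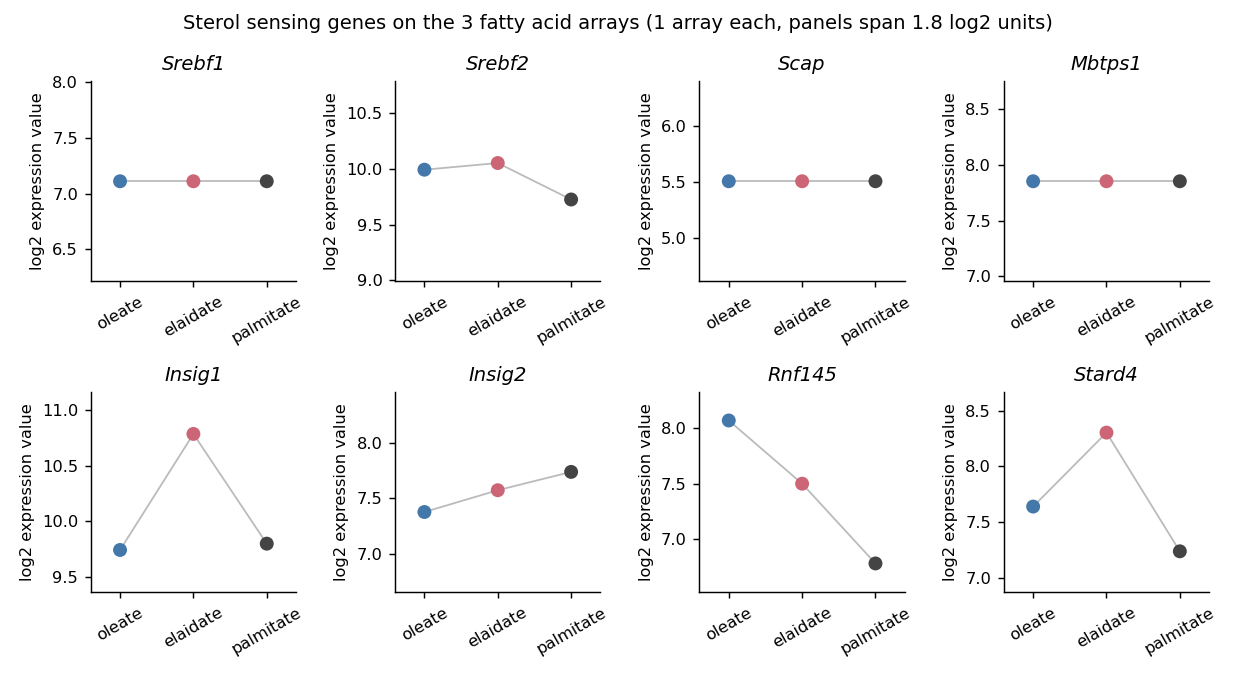
Log2 expression value (y axis) of each of the 8 measured sterol sensing genes on the oleate, elaidate and palmitate arrays (x axis), 1 point per array, with every panel spanning the same range of log2 units. Srebf1, Scap and Mbtps1 are flat, Insig1 and Stard4 peak on the elaidate array at 10.78 and 8.30, and Rnf145 steps down from 8.07 to 6.78.

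The retention genes Insig1 and Insig2 had different profiles. Insig1, which holds SCAP in the endoplasmic reticulum and is itself switched on by SREBP, had values of 9.74 with oleate, 10.78 with elaidate and 9.80 with palmitate. The elaidate array alone was high, and oleate and palmitate lay 0.06 apart. Insig1 was 1.04 higher with elaidate than with oleate, or 2.06-fold. Only 8 of the 9410 genes, Insig1 among them, were this much higher or more. It was 0.99 lower with palmitate than with elaidate, or 1.98-fold, which 91 genes matched or exceeded downwards.

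Insig2, a paralogue with the same retention role that is not known as an SREBP target, had values of 7.38 with oleate, 7.57 with elaidate and 7.74 with palmitate. Its order followed oleate, elaidate and palmitate upwards, an order that 13.1% of all genes showed. The span of 0.36, or 1.28-fold, stayed under 1.5-fold, and 21.3% of all genes had a span as wide. On the elaidate array both genes were above oleate, Insig2 by 0.20. Between elaidate and palmitate their values went opposite ways, with Insig2 0.16 higher on the palmitate array where Insig1 was lower.

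Rnf145, a ubiquitin ligase of the endoplasmic reticulum reported to act on SCAP and on HMG-CoA reductase, was the member with the widest span. Its values were 8.07 with oleate, 7.50 with elaidate and 6.78 with palmitate. The levels stepped down in the order oleate, elaidate, palmitate, which 13.7% of all genes did. Rnf145 was 1.28 lower with palmitate than with oleate, or 2.43-fold, and 48 of the 9410 genes were that much lower or more. It was 0.72 lower with palmitate than with elaidate, or 1.64-fold, as 257 genes were. The difference of -0.57 for elaidate against oleate, 1.48-fold, fell just short of 1.5-fold, yet only 7 genes, Rnf145 included, were so far down in that comparison. Its span of 1.28 was matched or exceeded by 1.52% of all genes.

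Stard4, a soluble protein that moves cholesterol between membranes, had values of 7.64 with oleate, 8.30 with elaidate and 7.24 with palmitate. Like Insig1 it was highest on the elaidate array, but here palmitate lay 0.40 under oleate. Stard4 was 0.66 higher with elaidate than with oleate, or 1.58-fold, as 44 genes were or more. It was 1.07 lower with palmitate than with elaidate, or 2.09-fold, which 69 genes matched or exceeded. Its span of 1.07 and the Insig1 span of 1.04 were reached by 2.75% and 2.85% of all genes.

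**Figure D2:**
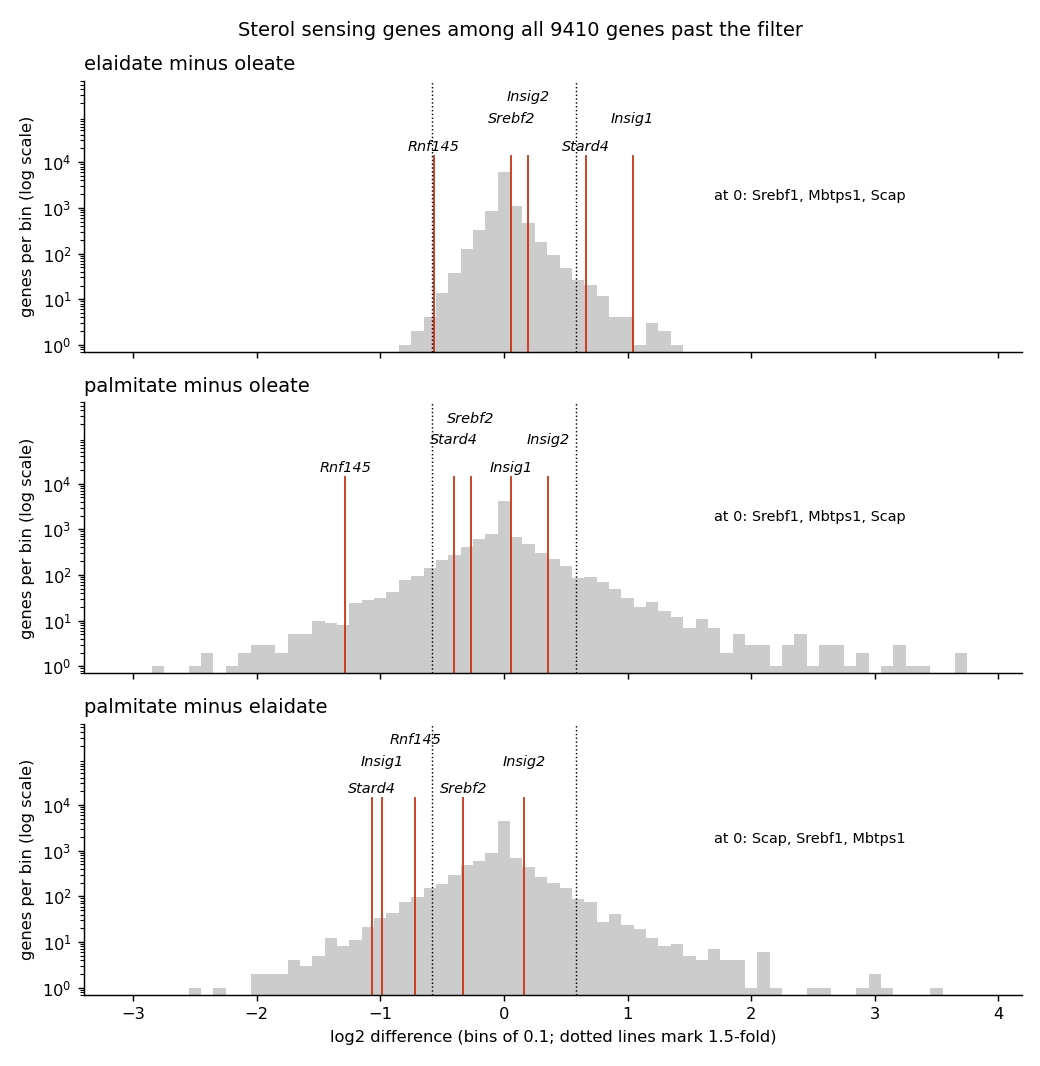
Log2 differences (x axis) of all 9410 genes past the filter as grey histograms with a logarithmic count axis (y axis), 1 panel per comparison, with the sterol sensing genes that differ marked in red and the 1.5-fold limits dotted. Insig1 at 1.04 lies in the upper tail of elaidate minus oleate, and Rnf145 at -1.28 in the lower tail of palmitate minus oleate.

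Counted together, 2 of the 8 measured members, Insig1 and Stard4, were at least 1.5-fold higher with elaidate than with oleate, where 0.723% of all genes were. None was 1.5-fold lower, beside 0.0638% of all genes. Between palmitate and oleate 1 member, Rnf145, was at least 1.5-fold lower, beside 4.73% of all genes, and none was higher, beside 4.57%. Between palmitate and elaidate 3 members, Stard4, Insig1 and Rnf145, were lower, beside 4.43%, and none was higher, beside 3.18%. With 8 genes, the count of 1 for palmitate against oleate is a share that a single gene makes. The median difference over the 8 members was 0.03, 0 and -0.16 in the order of these comparisons, beside 0 over all genes in each, and 3 of the 8 were equal in every comparison. For reading the counts of higher and lower genes below, 31.5% of all genes were higher, 24.3% lower and 44.1% equal for elaidate against oleate. For palmitate against oleate 30.9% were higher, 36.8% lower and 32.3% equal, and for palmitate against elaidate 27.9%, 37.9% and 34.2%. Elaidate held the highest value for 3 members, Insig1, Stard4 and Srebf2, an order found for 14.8% of all genes.

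The genes nearest in pattern were sought for the members that spanned at least 1.5-fold, by the distance between the 3 values after each gene's mean was taken off, over 9104 other genes past the filter, leaving out predicted and Rik genes, microRNA and small nucleolar RNA genes and olfactory and vomeronasal receptor genes by their symbols. With 3 arrays this is a description of shape. Nearest to Insig1 was Pmvk, a kinase of the mevalonate pathway, at a distance of 0.06, with values of 7.86, 8.97 and 7.99 on the oleate, elaidate and palmitate arrays. It was followed by the lanosterol synthase gene Lss at 0.06, the acetyl-CoA synthetase gene Acss2 at 0.14, the phosphatidate phosphatase gene Lpin1 at 0.17 and the sterol dehydrogenase gene Nsdhl at 0.19. Of these 5 genes, 3 belong to the SREBP2 target list described below, which has 19 genes among the 9104 compared. Nearest to Stard4 was the isomerase gene Idi1 at 0.05, with values of 9.61, 10.34 and 9.26. Next were Erg28 at 0.08, which encodes a scaffold of sterol synthesis enzymes, Rasgrp3 at 0.10, the sterol enzyme gene Hsd17b7 at 0.10 and the tubulin gene Tuba1a at 0.11, of which Hsd17b7 and Idi1 belong to that list.

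The genes nearest to Rnf145 came from outside sterol synthesis. They were Dok3, an adaptor of immune receptor signalling, at a distance of 0.05, Tor4a at 0.06, Soga1 at 0.10, the pseudokinase gene Trib1 at 0.10 and Sema4a, a semaphorin of immune cells, at 0.12. None of the 5 is in the SREBP2 target list. None could be, since all 19 measured genes of that list had their highest value on the elaidate array. Dok3 had values of 8.03, 7.44 and 6.68 on the oleate, elaidate and palmitate arrays.

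**Figure D3:**
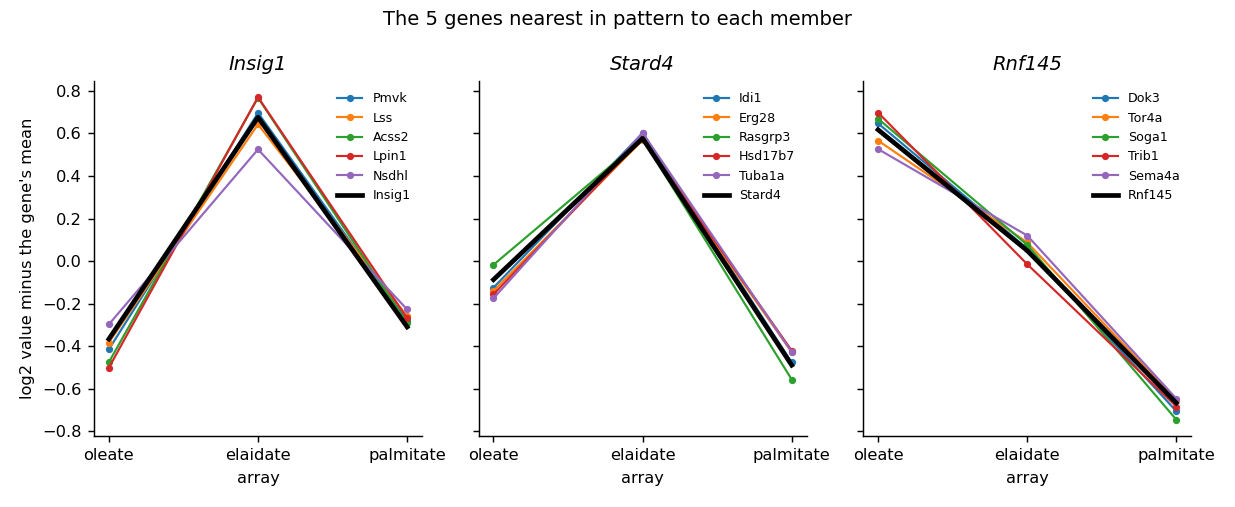
Log2 value minus the gene's own mean over the 3 arrays (y axis) on each array (x axis) for Insig1, Stard4 and Rnf145 (thick black lines) and the 5 genes nearest to each in pattern (coloured lines). The neighbours of Insig1 and Stard4 peak on the elaidate array, and those of Rnf145 step down from oleate to palmitate.

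The known targets of the SREBP proteins were set beside the machinery, in lists chosen with earlier results of these data known. SREBP processing itself was not measured. Of 24 genes listed as SREBP2 targets 19 were measured, and all 19 were higher with elaidate than with oleate, where 31.5% of all genes were. Their median was 0.65, and 12 were at least 1.5-fold higher. Pmvk at 1.11, Lss at 1.03, the mevalonate decarboxylase gene Mvd at 1.01, the demethylase gene Cyp51 at 0.91, Sc5d at 0.84 and Nsdhl at 0.82 led them. Insig1 at 1.04 and Stard4 at 0.66 lay within their range of 0.12 to 1.11, and Srebf2 at 0.06 lay below it. All 19 had their highest value on the elaidate array. With palmitate against oleate the median was -0.07 and none reached 1.5-fold, with the synthase gene Hmgcs1 at -0.54 and Idi1 at -0.35 furthest from 0. With palmitate against elaidate all 19 were lower, 17 of them at least 1.5-fold, at a median of -0.67, led by Mvd at -1.29, Hmgcs1 at -1.20, Idi1 at -1.08, then Hsd17b7, Pmvk at -0.98 and Lss at -0.90.

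Among 19 SREBP1 targets 14 passed the filter. With elaidate against oleate 12 were higher, 1 was lower and 1 equal, at a median of 0.48. The deposited value of Srebf1 itself was equal on both arrays, which does not show that its messenger RNA was the same. The 5 at least 1.5-fold higher were Lpin1 at 1.27, Acss2 at 1.24, the desaturase gene Scd2 at 0.80, the citrate lyase gene Acly at 0.61 and the desaturase gene Fads2 at 0.59. With palmitate against oleate the median was -0.10, and the fatty acid synthase gene Fasn at -1.06 and Aacs at -0.61 were past 1.5-fold. With palmitate against elaidate 12 were lower and 2 equal, 8 of them at least 1.5-fold lower, at a median of -0.78. Fasn at -1.41, Aacs at -1.14, Acss2 at -1.06, Lpin1 at -1.04, the carboxylase gene Acaca at -0.82 and Acly at -0.82 were the furthest from 0.

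Rnf145 and Srebf1 are also known LXR targets, and they were set beside the other genes of the LXR list. Of 13 listed genes 11 were measured and 8 passed the filter. Of these, 0 had the order of Rnf145, beside 13.7% of all genes. Equal on all arrays, as Srebf1 was, were 3 of the 8, beside 27.5% of all genes. With 8 genes, neither count sets the list apart from all genes. With palmitate against oleate 4 were higher, 1 lower and 3 equal, at a median of 0.19. The sterol exporters Abcg1 at 1.34 and Abca1 at 0.89, and Mylip, the ubiquitin ligase that degrades the LDL receptor, at 0.68 were at least 1.5-fold higher, in the comparison in which Rnf145 was 1.28 lower. With palmitate against elaidate Abca1 at 1.17 and Abcg1 at 1.07 were past the limit. With elaidate against oleate none reached 1.5-fold, with the acyltransferase gene Lpcat3 at 0.48 and Abca1 at -0.28 furthest from 0. Nr1h3, which encodes LXR alpha, was equal on all 3 arrays at 4.67, near the filter of 4.14. In the lowest group by mean level, which holds Nr1h3, 45.7% of genes were equal on all 3 arrays. The listed gene Nr1h2 had no value of its own.

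Most markers of the macrophage itself had the order of Rnf145. Of the 10 measured, 7 were highest with oleate, in the middle with elaidate and lowest with palmitate, beside 13.7% of all genes. Another 2 were equal on all arrays, and the remaining marker was equal with oleate and elaidate and lower with palmitate. The median difference of the 10 markers was -0.34 for palmitate against oleate. The receptor kinase gene Mertk at -2.10, the lysozyme gene Lyz2 at -0.83 and Adgre1 at -0.66 were at least 1.5-fold lower, beside 4.73% of all genes. The part of the markers in the Rnf145 difference was not tested. Fewer messenger RNA molecules per cell and a change in the make-up of the culture cannot be told apart on these arrays.

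Genes that work with the SREBP complex differed little. Of 16 listed partners, which include its nuclear cofactors and SCAP-binding proteins, 15 passed the filter and none reached 1.5-fold in any comparison. Pgrmc2 at 0.20 and the coactivator gene Ep300 at -0.11 were furthest from 0 for elaidate against oleate. Spring1, which encodes a partner needed for site-1 protease activity, was 0.25 higher with palmitate than with oleate and 0.32 higher than with elaidate, and Tbc1d20 was 0.22 and 0.26 higher.

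The COPII coat carries the SCAP and SREBP complex out of the endoplasmic reticulum. Of 13 genes 12 passed the filter, with medians of 0, 0.04 and 0.04 for elaidate against oleate, palmitate against oleate and palmitate against elaidate. Only the cargo adaptor gene Sec24d was at least 1.5-fold different, at 0.91 for palmitate against oleate, followed by Sec23b at 0.51. Sec24d had values of 7.40 with oleate, 7.78 with elaidate and 8.31 with palmitate, the order seen for Insig2.

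Other substrates of the site-1 and site-2 proteases were measured as well. Of 8 listed genes 4 passed the filter. Atf6, a stress sensor of the endoplasmic reticulum that is cut by the same protease pair, had values of 9.75 with oleate, 9.93 with elaidate and 10.77 with palmitate. It was 1.02 higher with palmitate than with oleate and 0.84 higher than with elaidate. Creb3l2, a related membrane-bound factor, was 0.74 and 0.44 higher, and Gnptab, a site-1 protease substrate of lysosomal enzyme targeting, was 0.45 and 0.39 lower. For elaidate against oleate none reached 1.5-fold, with Creb3l2 at 0.30 and Atf6 at 0.18.

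Rnf145 was also set beside a list of other ubiquitin ligases and their partners. Of 18 listed genes 15 were measured, and with palmitate against oleate 10 were higher, 2 lower and 3 equal, at a median of 0.18. Trim25, better known as a ligase of antiviral signalling, at 0.72 and the retrotranslocation gene Derl1 at 0.60 were past 1.5-fold, and none was lower by as much. With palmitate against elaidate Trim25 at 0.61 was the only gene past it, followed by Derl1 at 0.36. With elaidate against oleate none was, with Derl1 at 0.24 and Trim25 at 0.11. Rnf139, a ligase that binds INSIG, was equal on all 3 arrays at 6.83.

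Other measured genes of sterol transfer and storage did not share the elaidate peak of Stard4 at its size. The listed esterification genes Soat1 and Soat2 had no value of their own. Of 20 listed 17 were measured and 13 passed the filter, and for elaidate against oleate none reached 1.5-fold, with Osbpl8 at 0.38 and Gramd1b at 0.27 the highest beside 0.66 for Stard4. Elaidate held the highest value for 4 of the 13. With palmitate against oleate the oxysterol-binding protein genes Osbpl2 at 1.09 and Osbpl8 at 0.85 and the cholesteryl ester hydrolase gene Nceh1 at 0.61 were higher, and the lysosomal membrane gene Scarb2 at -0.65 was lower, where Stard4 stood at -0.40. With palmitate against elaidate Osbpl2 at 0.98 and Scarb2 at -0.73 were past the limit. The START domain relatives Stard3 and Stard5 lay within 0.10 of 0 in each comparison. Of 6 oxysterol enzyme genes 3 passed the filter, of which Ch25h and Hsd3b7 were equal on all arrays and Cyp27a1 differed by at most 0.08.

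**Figure D4:**
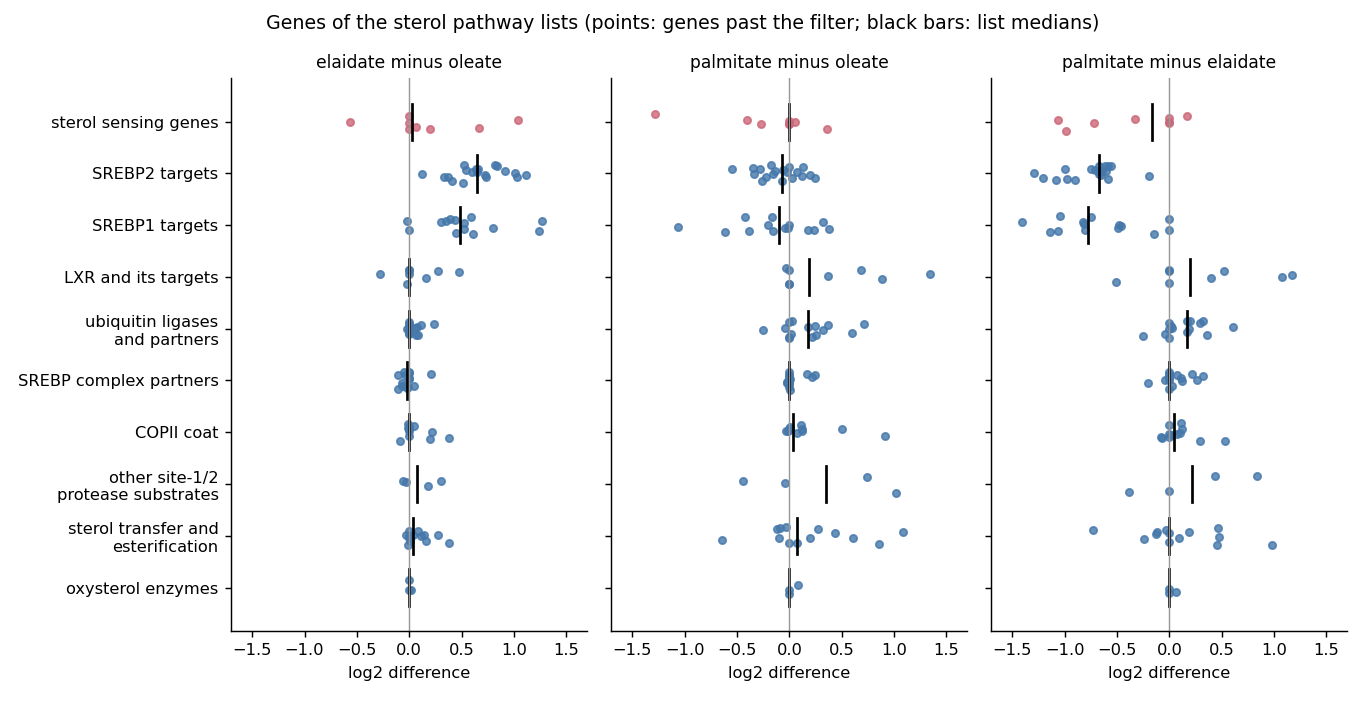
Log2 difference (x axis) of each gene past the filter, as points, in the sterol sensing genes and 9 pathway lists (y axis), 1 panel per comparison, with list medians as black bars. The SREBP2 targets lie at a median of 0.65 for elaidate minus oleate and of -0.67 for palmitate minus elaidate, while the sterol sensing genes spread to both sides of 0.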

How the data were processed

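RNA of 3 cultures, 1 per fatty acid, was biotin-labelled and hybridised to arrays, per the labels' protocols. The deposited values are log2 expression values. The submitters' processing notes name RMA, and its version and the genome build are not given in the sources used here. This method summarises the probes of a probe set after making arrays alike. Values were used as deposited, and arrays have no depth, so their number limits the precision. Of 35556 probe sets 21218 had 1 gene symbol in the platform annotation, which can be old, 1881 had several and 12457 none. Only the first kind was used, 21185 of them matched to RefSeq by gene identifier, with probe sets of a gene averaged. The filter kept genes whose mean was at or above the median gene. No test is possible with 1 array per fatty acid.

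All 9 members were named, and of each list up to 6 genes past 1.5-fold, or otherwise the 2 furthest from 0, with some repeats. Others were chosen after their values were seen: Cd68, Nr1h3, Rnf139, Sec23b, Gnptab, Stard3, Stard5, Ch25h and Hsd3b7, and Creb3l2 and Derl1 for palmitate against elaidate. The members and lists were chosen with earlier results of these data known. Motif letters were chosen after the values were seen. Counting and pattern steps were tested on simulated data. Software was pandas 2.3.3 and numpy 2.4.6 in Python 3.11.15, matplotlib 3.10.9, and limma 3.58.1 in R 4.3.3 for cyclic loess. Other alternatives were filters, fold limits, centring and the choice of probe set.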

Additional observations from a re-analysis of the deposited data

How the results depend on the processing

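Member differences were taken again under median centring of the arrays, cyclic loess (span 0.7, 3 iterations) or the probe set with the highest mean. All 72 kept within 0.04 log2 of the reported value, and none past 1.5-fold changed sign. Much of this was fixed beforehand. Centring moves every gene by the same amount within a comparison. The choice of probe set could alter only Scap, whose probe sets were each equal on all arrays. Under centring, the genes equal on all arrays stood at -0.01, -0.04 and -0.03 for elaidate against oleate, palmitate against oleate and palmitate against elaidate. Of 72 alternative counts 61 were within 1.5 times the reported count. Looser filters could not alter the counts of members or SREBP2 targets, since all those measured had already passed the main filter. With a 2-fold limit 1 member was past it in each comparison. These were Insig1 for elaidate against oleate, Rnf145 for palmitate against oleate and Stard4 for palmitate against elaidate. The SREBP2 targets past 2-fold were 3 for elaidate against oleate, 0 for palmitate against oleate and 3 for palmitate against elaidate. The LXR list had 1 for palmitate against oleate and 2 for palmitate against elaidate. With a lower limit, a log2 difference of 0.32, 3 members and 3 SREBP2 targets were past it for palmitate against oleate, and the LXR list had 1 for elaidate against oleate and 5 for palmitate against elaidate. With the filter at the 75th percentile the LXR list kept 2 genes and had 1 past the limit in each palmitate comparison, because fewer genes were counted. No paired analysis was possible because each fatty acid has 1 array. Leaving out a replicate was not possible for the same reason.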
